A study of Rattus norvegicus with 8 samples.

Results

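Tnfrsf1a and Fas are the rat genes for tumour necrosis factor receptor 1 and for the Fas receptor. They are 2 of 7830 genes in the table and are followed here through every probe set, a small group of array probes for an exon or part of one, whose only gene symbol in the platform annotation was Tnfrsf1a or Fas. There were 16 for Tnfrsf1a and 13 for Fas, together 29 of 80939. Both genes were selected on the EAE against control values described here, per probe set and relative to the rest of the gene. The animals were 8 virgin Lewis females, 16 weeks old, and the total RNA of each whole spinal cord went on an array of its own. In 4 of them experimental autoimmune encephalomyelitis (EAE), a T cell-driven inflammation of the central nervous system, had been induced by injecting 50 µg of myelin basic protein from guinea pig under the skin at the tail base. The protein was given in Freund's incomplete adjuvant to which M. butyricum had been added at 4.0 mg/ml, and the cords were removed on day 13, when disease was at its peak. The reference was 4 healthy littermates of the same age that received no injection, so what the adjuvant does and what the protein does cannot be told apart in the EAE values.

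Both receptors sit in the cell membrane and carry a death domain, a protein module on the inner side that recruits adaptor proteins. Tumour necrosis factor bound to Tnfrsf1a assembles a complex that switches on NF-kappaB and stress kinases and, when this complex is altered, caspase-8. Fas ligand bound to Fas recruits the adaptor Fadd and caspase-8 directly, and Fas is known for ending T cell responses in the inflamed nervous system. Soluble forms of both receptors are known, from shedding of Tnfrsf1a by the protease Adam17 and, in humans, from splicing of Fas without its membrane-spanning exon.

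The promoters are shown because both genes had higher values in EAE and because interferon and NF-kappaB motifs could be looked for in them. Each is the stretch from 250 bases before to 50 bases after the annotated gene start, read from RefSeq on build GRCr8, plus strand. Tnfrsf1a lies at chr4:159836869-159837168 and Fas at chr1:241211905-241212204. Capitals mark every match to 6 motifs, searched on both strands: GAS (TTCNNNGAA), the ISRE core (GAAA, any 2 letters, GAAA), the NF-kappaB consensus, AP-1 (TGANTCA), the GC box (GGGCGG) and the TATA box (TATAAA).
Tnfrsf1a: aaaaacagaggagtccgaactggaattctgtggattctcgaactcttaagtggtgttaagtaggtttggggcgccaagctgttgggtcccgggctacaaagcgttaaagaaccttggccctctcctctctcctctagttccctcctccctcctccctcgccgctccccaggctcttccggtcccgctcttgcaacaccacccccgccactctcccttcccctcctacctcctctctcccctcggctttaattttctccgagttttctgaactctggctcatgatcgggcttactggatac
Fas: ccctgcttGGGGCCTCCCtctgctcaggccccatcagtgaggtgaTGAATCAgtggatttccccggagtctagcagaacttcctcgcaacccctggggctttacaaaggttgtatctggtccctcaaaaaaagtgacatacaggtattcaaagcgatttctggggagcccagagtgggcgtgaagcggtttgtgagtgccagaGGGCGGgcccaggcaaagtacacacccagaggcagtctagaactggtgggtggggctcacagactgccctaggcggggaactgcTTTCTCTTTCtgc
The Fas window held 1 match each to the NF-kappaB consensus, AP-1, the GC box and the ISRE core, in this order from left to right and without overlap. Among 33469 promoters of the same length these motifs stood in 7.51%, 7.33%, 33.1% and 3.92%. The Tnfrsf1a window held none of the 6 motifs, which says only that these letters are not in this stretch. GAS stood in 8.87% and the TATA box in 14.2% of all promoters, and in neither of these windows. GC content was 55.7% for Tnfrsf1a and 56.7% for Fas, against a median of 51.7%.

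The values are log2 intensities, on which a difference of 1 is a doubling. An array has no read depth, and the number of arrays limits the precision. Correlations between arrays ran from 0.890 to 0.984 and no array repeated another. The limit of background was set on each array as the 95th percentile of 2026 probe sets for olfactory receptors, which the cord hardly uses. It ran from 5.10 to 5.50 on EAE arrays and from 4.96 to 5.88 on control arrays. Control rat 195 stood apart, with the highest limit, the narrowest spread of values (SD 2.11, against 2.17 to 2.26 on the other arrays) and the highest olfactory median (3.77, against 3.16 to 3.49). Several results that rest on it are also given without it below. The tissue label fits its markers: the neuronal gene Snap25 averaged 12.20 in EAE and 12.45 in controls, and the myelin gene Mbp 9.18 in EAE and 9.60 in controls.

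Both receptor genes had higher values in EAE than in controls, and the groups were apart in every rat. A probe set counted as measured when it reached the 25th percentile of all values (3.98) on at least 4 arrays, and probe sets that passed were averaged to a gene value. In this way 13 of 16 Tnfrsf1a and 10 of 13 Fas probe sets were measured. For Fas, over 10 measured probe sets, this was 6.73, 6.93, 6.74 and 6.84 in EAE rats 217, 218, 219 and 241, against 5.03, 5.40, 5.27 and 5.19 in control rats 193, 194, 195 and 196. All rats are given in this order from here on. For Tnfrsf1a, over 13, it was 6.30, 6.05, 6.02 and 6.10 in EAE rats, against 5.07, 5.30, 5.08 and 5.44 in controls. The lowest EAE rat exceeded the highest control by 1.33 for Fas and by 0.58 for Tnfrsf1a.

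The Fas mean was 6.81 ± 0.09 in EAE and 5.22 ± 0.16 in controls (SD, n = 4 each), a difference of 1.59 ± 0.09 (SE). The Tnfrsf1a mean was 6.12 ± 0.13 in EAE and 5.22 ± 0.18 in controls, a difference of 0.90 ± 0.11 or 1.86-fold. Both averages include probe sets below background in all controls, among them 6076052 in Tnfrsf1a and 6300034 in Fas. The background limits were not applied to these gene differences. Of 6961 genes with a value, 245 had a larger difference than Fas and 497 a larger one than Tnfrsf1a. The median over all genes was -0.11. In 14.1% of genes all EAE rats lay above all controls and in 19.2% below them. Both genes were chosen with this contrast known, so no test is given for them and nothing is read from these ranks. Over all probe sets, with no filter on dim ones, the difference was 1.32 ± 0.10 for Fas and 0.84 ± 0.10 for Tnfrsf1a.

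These means hide a wide range between probe sets of the same gene. For Tnfrsf1a the difference, EAE minus control, ran from 3.58 down to -0.55 with a median of 0.46 over all 16 probe sets. For Fas it ran from 2.77 to 0.05 with a median of 1.14 over all 13. The median over all probe sets of the table was -0.09. All EAE rats lay above all controls in 6 of 16 Tnfrsf1a probe sets and 8 of 13 Fas probe sets, where the table as a whole had 9.37%. All EAE rats lay below all controls in 1 Tnfrsf1a probe set and in no Fas probe set, where the table had 11.9%. A difference of 1 or more was found in 5 Tnfrsf1a and 9 Fas probe sets, and in 6.3% of the table. Without control rat 195 the counts wholly above were 7 for Tnfrsf1a and 10 for Fas. Fewer controls make such a separation easier for any probe set. The share of the table without this rat was not computed, so nothing is read from the higher counts.

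**Figure D1:**
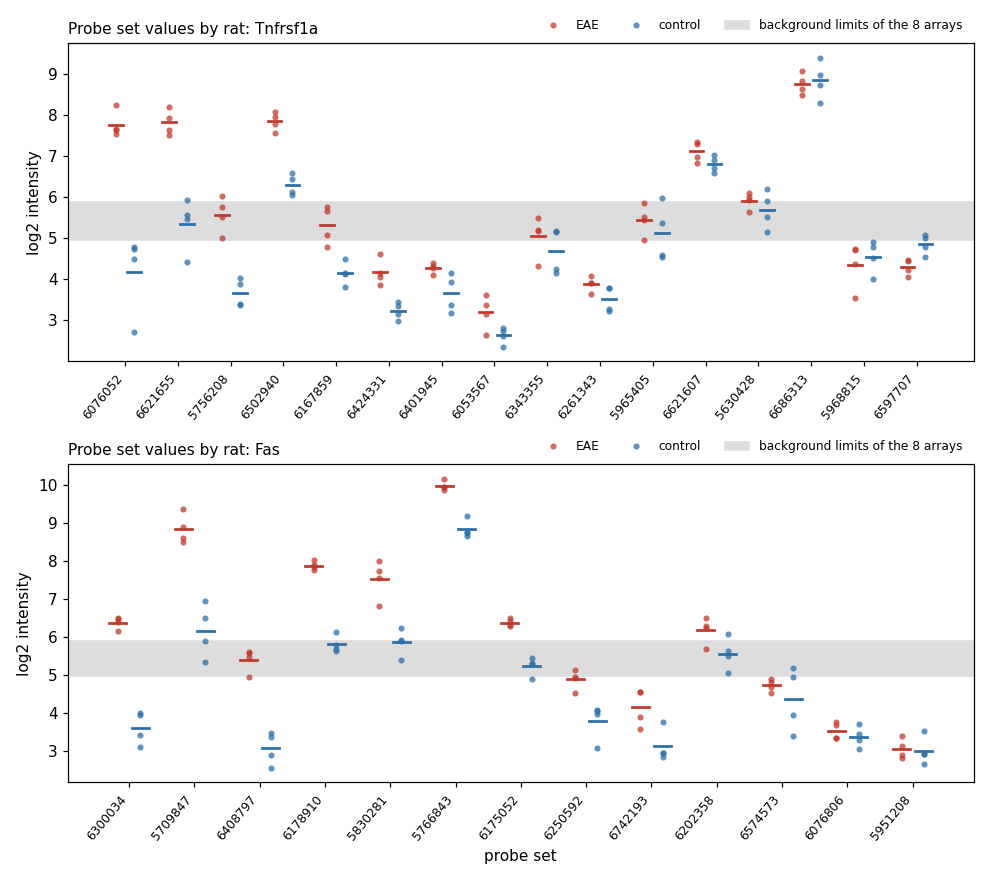
Log2 intensity (y axis) of each Tnfrsf1a probe set (top) and Fas probe set (bottom), ordered by the difference between groups; points are rats, 4 with EAE (red) and 4 controls (blue), short bars are group means, and the grey band spans the background limits of the 8 arrays, 4.96 to 5.88. The groups are far apart at the left of each panel and overlap toward the right, except in the last Tnfrsf1a probe set, 6597707. There all EAE rats lie just below the controls. Tnfrsf1a probe set 6686313, at 8.75 in EAE and 8.85 in controls, is both bright and level.

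The largest Tnfrsf1a difference was in probe set 6076052. It read 8.23, 7.67, 7.54 and 7.63 in EAE rats, against 4.74, 4.79, 2.72 and 4.50 in controls. All 4 controls lay below their background limit and all 4 EAE rats above it, so the level in EAE was at least 5.49-fold that in controls, counting controls at their limit. The measured difference was 3.58 ± 0.52 (SE). Control 195 was the lowest by far, and without it the difference was 3.09.

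The other Tnfrsf1a probe set with a difference above 2 was 6621655, which read 7.94, 8.20, 7.51 and 7.63 in EAE rats, against 5.94, 5.47, 4.42 and 5.57 in controls. Every EAE rat was above every control, and 3 of the 4 controls were above background. The difference was 2.47 ± 0.36, or 5.53-fold, and 2.16 without control 195, the lowest control. Probe set 6502940, above background on all 8 arrays, read 8.08, 7.57, 7.96 and 7.78 in EAE rats, against 6.44, 6.59, 6.12 and 6.05 in controls. It differed by 1.55 ± 0.17, or 2.93-fold, with no overlap. Dimmer probe sets with the same order were 5756208 (5.58 ± 0.44 in EAE and 3.67 ± 0.33 in controls, SD), 6167859 (5.32 ± 0.47 in EAE and 4.14 ± 0.27 in controls) and 6424331 (4.17 ± 0.32 in EAE and 3.24 ± 0.20 in controls). The last lay below background on all arrays.

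Other bright Tnfrsf1a probe sets stayed close to level. Probe set 6686313, the one with the highest readings, had 8.49, 8.84, 9.06 and 8.62 in EAE rats, against 8.30, 8.98, 9.39 and 8.73 in controls. The EAE values fell inside the range of the controls, and the means differed by -0.10 ± 0.26. Without control 195, the highest of the controls, the difference was 0.084. Probe set 6621607 read 7.35, 7.30, 6.84 and 6.98 in EAE rats, against 6.91, 7.02, 6.60 and 6.70 in controls. Its groups overlapped, with a difference of 0.31 ± 0.16. Probe set 5630428 averaged 5.92 ± 0.20 in EAE and 5.69 ± 0.46 in controls and overlapped as well. The 4 Tnfrsf1a probe sets above background on all 8 arrays had differences of 1.55, 0.31, 0.22 and -0.10.

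The probe set with all EAE rats below the controls was 6597707, at 4.05 to 4.48 in EAE rats, against 4.54 to 5.09 in controls. The gap between the groups was 0.06, and all 8 values lay below background, so this is a difference between background readings. The other 6 Tnfrsf1a probe sets (6401945, 6053567, 6343355, 6261343, 5965405 and 5968815) had overlapping groups. Their differences ran from -0.21 to 0.61, and their group means from 2.64 to 5.45. Of all 16, 6 lay below background on all 8 arrays.

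In Fas the largest difference was in probe set 6300034, which read 6.15, 6.46, 6.39 and 6.48 in EAE rats, against 3.09, 3.99, 3.93 and 3.41 in controls. The EAE rats lay close together above background and all controls below it. The difference was 2.77 ± 0.23, and counted against the background limits the level in EAE was at least 2.09-fold higher. Probe set 5709847 read 8.89, 9.37, 8.50 and 8.59 in EAE rats, against 6.48, 5.33, 5.89 and 6.94 in controls. It was above background on all 8 arrays and was 6.38-fold higher (2.67 ± 0.40), although the controls were spread over more than 1 log2 unit.

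Probe set 6178910 gave the tightest of the large differences, with 7.88, 7.82, 7.76 and 8.01 in EAE rats, against 5.78, 6.11, 5.69 and 5.62 in controls. The difference was 2.07 ± 0.12, or 4.20-fold, with 3 of the 4 controls above background. Probe set 5830281 read 7.74, 7.99, 6.80 and 7.55 in EAE rats, against 5.91, 6.24, 5.38 and 5.89 in controls, a difference of 1.67 ± 0.31. Rat 219 was the lowest of the EAE rats and still exceeded every control. In this probe set too 3 of the 4 controls were above background. Probe set 6408797 passed the filter on dim probe sets only through its EAE values (5.39 ± 0.31 in EAE and 3.07 ± 0.42 in controls).

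The brightest Fas readings came from probe set 5766843, with 9.94, 10.15, 9.93 and 9.85 in EAE rats, against 8.72, 9.17, 8.64 and 8.76 in controls. Unlike the brightest probe set of Tnfrsf1a it did separate the groups, with a difference of 1.15 ± 0.14 or 2.21-fold. Probe set 6175052 had almost the same difference (1.14 ± 0.13) at a lower reading, 6.37 ± 0.10 in EAE and 5.23 ± 0.24 in controls. Only 2 of its 4 controls were above background. Probe set 6202358, above background on all arrays, read 5.68, 6.28, 6.24 and 6.50 in EAE rats, against 5.04, 5.62, 6.07 and 5.50 in controls. Its groups overlapped, with a difference of 0.62 ± 0.27.

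The remaining 5 Fas probe sets (6250592, 6742193, 6574573, 6076806 and 5951208) lay below background on all 8 arrays. Of these only 6250592 separated the groups (4.88 ± 0.25 in EAE and 3.79 ± 0.48 in controls). Its difference of 1.09 was 0.85 without control 195, which is under the 1 used for the count above. The 3 Fas probe sets above background on all arrays had differences of 2.67, 1.15 and 0.62.

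The study was set up to compare exons, so each measured probe set was also read against the mean of the other measured probe sets of its gene on the same array. In Tnfrsf1a 4 of 13 such relative values were higher in all EAE rats than in all controls and 5 were lower. In Fas 4 of 10 were higher and 4 were lower. Over all measured probe sets in genes with at least 3 of them, 6.54% were wholly higher and 6.16% wholly lower. The members were chosen for this contrast, so no test is given and nothing is read from these counts.

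**Figure D2:**
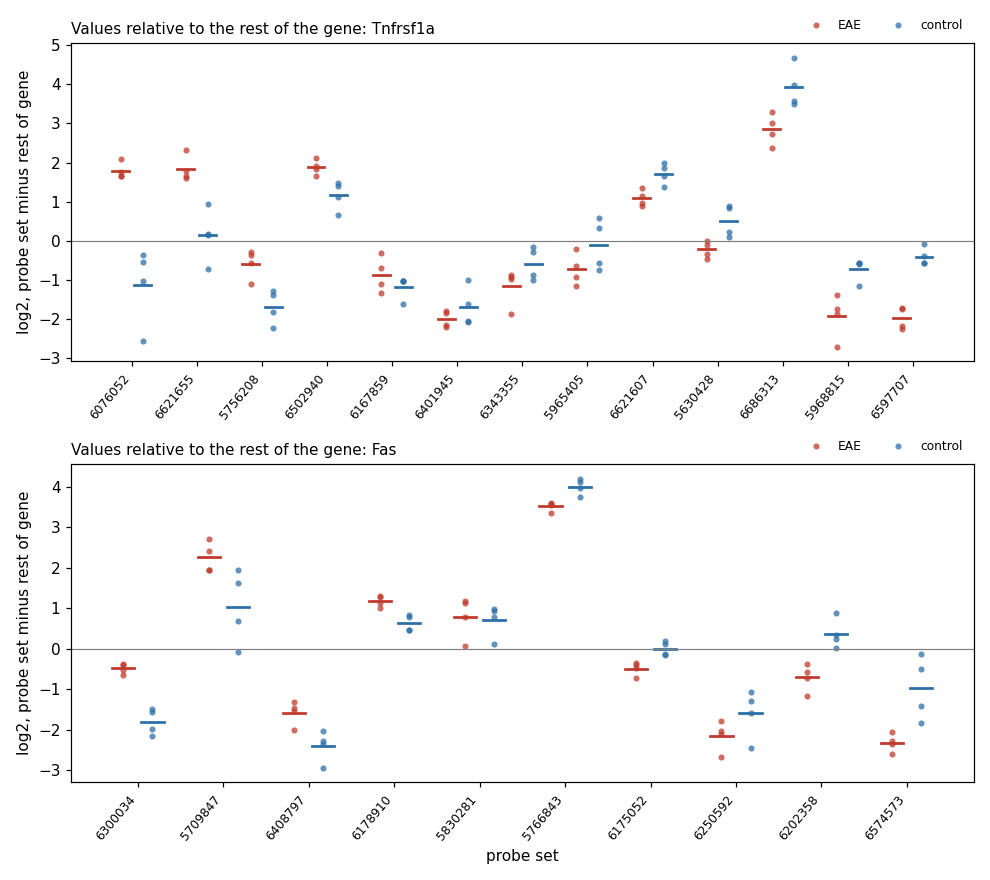
Log2 value of each measured probe set minus the mean of the other measured probe sets of its gene on the same array (y axis), for Tnfrsf1a (top) and Fas (bottom), ordered within each gene by the difference between groups; points are rats with EAE (red) and controls (blue), short bars are group means. Probe sets at the left are higher in EAE relative to their gene, led by 6076052 in Tnfrsf1a, and those at the right are lower.

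In Tnfrsf1a the relative value of probe set 6076052 was 1.79 ± 0.21 in EAE and -1.12 ± 0.99 in controls (SD), a difference of 2.91. All its controls lay below background, so the size of this difference rests on background readings, and without control 195 it was 2.43. Those of 6621655, 5756208 and 6502940 differed by 1.70, 1.09 and 0.71, with the controls of 5756208 below background too. Among the lower ones, 6597707, with -1.97 ± 0.28 in EAE and -0.40 ± 0.23 in controls, and 5968815, with a difference of -1.20, lay below background on all 8 arrays. The bright 6686313, above background on all 8, had 2.86 ± 0.40 in EAE and 3.93 ± 0.54 in controls. The relative values of 6686313 were 2.36, 3.02, 3.30 and 2.74 in EAE rats, against 3.50, 3.99, 4.68 and 3.57 in controls, so all EAE rats were lower. Also lower in every EAE rat were 5630428 and 6621607, by 0.73 and 0.63. Since the other probe sets of the gene were higher in EAE, a level probe set is low on this scale by construction.

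In Fas the relative differences were smaller. They ran from 1.31 in probe set 6300034 to -1.36 in 6574573, with 5709847 at 1.21, 6408797 at 0.82 and 6178910 at 0.54. The controls of 6300034 and 6408797 lay below background. The dim probe set 6574573 had -2.32 ± 0.22 in EAE and -0.96 ± 0.79 in controls, all 8 readings lying below background. Set against the median of the other probe sets instead of their mean, its difference was -0.73. Among probe sets above background on all arrays, 6202358 was lower by 1.07, with relative values of -1.16, -0.72, -0.56 and -0.38 in EAE rats, against 0.01, 0.25, 0.88 and 0.34 in controls. Probe sets 5766843 and 6175052 were lower by 0.49 each, in every EAE rat. Of these 5766843 was above background on all arrays, but 6175052 in only 2 of its 4 controls. Which exon each probe set reads was not analysed here.

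The spread of differences within a gene can be set beside that of other genes. Over all probe sets its SD was 1.08 in Tnfrsf1a and 0.92 in Fas, against a median of 0.35 in 3194 genes with at least 10 probe sets. The distance between the largest and the smallest difference was 4.13 in Tnfrsf1a and 2.71 in Fas, against a median of 1.28. The spread was larger in the 339 genes whose mean difference was 0.5 or more, with a median SD of 0.63. Of these 339 genes 48 exceeded Tnfrsf1a and 80 exceeded Fas. At least 1 probe set wholly above and 1 wholly below were found together in 10.6% of the 3194 genes, and in 16 of the 339. Tnfrsf1a was one of them, but only through the background readings of probe set 6597707. These are descriptions of the contrast that chose the genes.

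**Figure D3:**
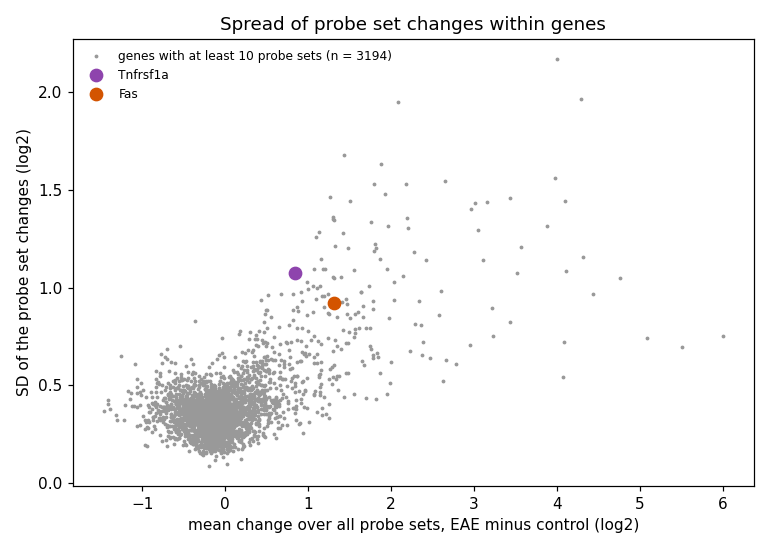
SD of the differences of a gene's probe sets (y axis, log2) against their mean (x axis, EAE minus control, log2) for 3194 genes with at least 10 probe sets; each grey point is a gene. Tnfrsf1a (0.84, SD 1.08) and Fas (1.32, SD 0.92) lie among the 339 genes with a mean difference of 0.5 or more. The median SD of these was 0.63, against 0.35 over all 3194.

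The genes most like the 2 receptors over the 8 arrays were sought by the root mean square distance between gene values, each gene set to 0 at its control mean, among 5562 other genes with at least 3 measured probe sets. Nearest to Tnfrsf1a were Jak2, a kinase of cytokine receptors (distance 0.09), Bak1, a pore-forming protein of mitochondrial apoptosis (0.09), and Atp7a, a copper transporter (0.12). Jak2 had 8.13 ± 0.05 in EAE and 7.24 ± 0.14 in controls. Nearest to Fas were Coro1a, an actin-binding protein of leukocytes (0.09), the phospholipase Pla1a (0.13) and Rarres1 (0.13), a gene induced by retinoids. Coro1a had 6.29 ± 0.17 in EAE and 4.65 ± 0.15 in controls. The median distance of all genes was 0.76 from Tnfrsf1a and 1.22 from Fas, and that between the receptors 0.52. With controls centred on 0, this distance rests mainly on the size of the group difference, by which the receptors were chosen. That difference was 0.89 in Jak2, 0.91 in Bak1 and 0.85 in Atp7a. It was 1.65 in Coro1a, 1.57 in Pla1a and 1.60 in Rarres1.

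Genes around the receptors were taken from 5 lists of ligands, related receptors, adaptors, caspases and downstream kinases. Of 117 listed genes 62 had a value, and 26 of them rose and 4 fell at an adjusted p under 0.05 in limma, a linear model with variances moderated over all genes. Of all 6961 genes 13.7% rose and 17.4% fell, and of single probe sets 10.2% rose and 10.2% fell. The median difference of the 62 was 0.31. Of the 30 calls 18 passed under all of 16 alternative settings. In the diffSplice test of exon usage 24 of 52 listed genes with at least 3 measured probe sets passed, where 26.6% of all 5563 such genes did.

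**Figure D4:**
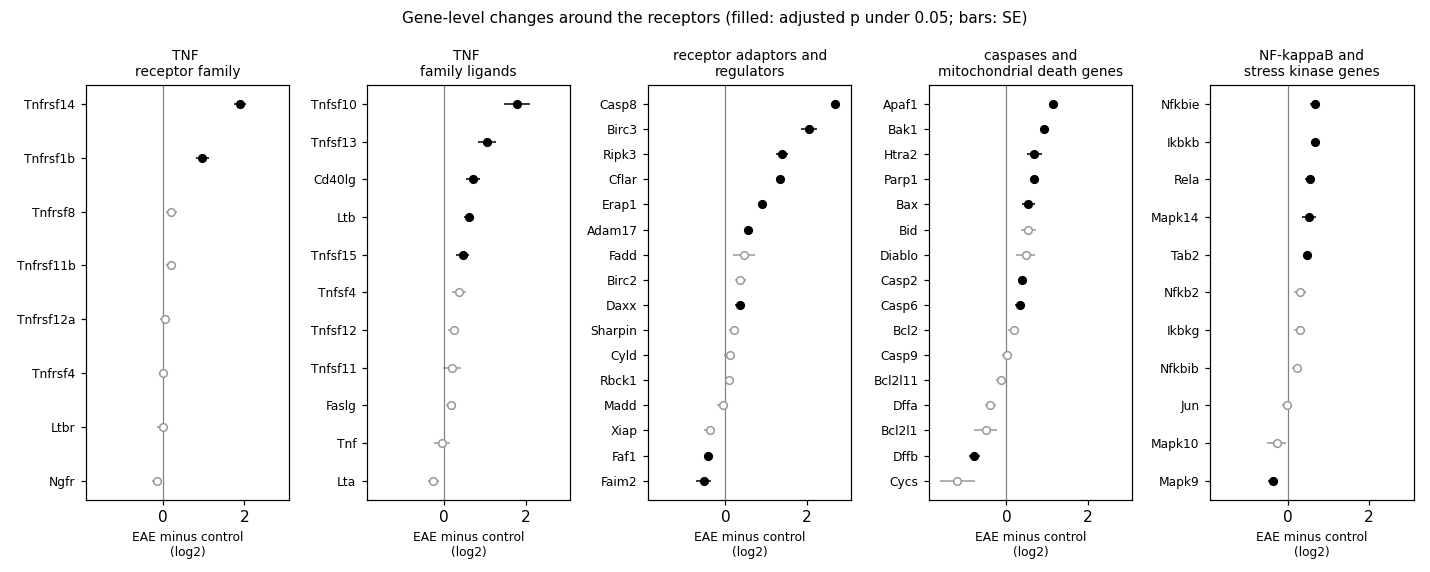
Gene-level difference, EAE minus control (x axis, log2), for the 62 listed genes with a value, in 5 panels by list; bars are SE from limma, filled points had an adjusted p under 0.05 and open points did not. Casp8, at 2.69, has the largest difference, and Tnf and Lta lie at or below 0.

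Among the ligands those of the receptors themselves did not pass. Tnf, which binds Tnfrsf1a, had 5.24, 5.78, 5.38 and 5.18 in EAE rats, against 5.16, 5.62, 5.88 and 5.10 in controls (difference -0.05 ± 0.20, limma adjusted p = 0.884). Lta, lymphotoxin alpha, another ligand of Tnfrsf1a, differed by -0.27 ± 0.14 (limma adjusted p = 0.162). Faslg, the ligand of Fas, had 4.47, 4.80, 4.80 and 4.74 in EAE rats, against 4.44, 4.44, 4.80 and 4.51 in controls (0.15 ± 0.12, limma adjusted p = 0.380). Tnf and Lta were read by 2 measured probe sets each and Faslg by 4, with its controls at background. Set on gene values of olfactory receptors, the background limits of EAE rats 217, 218 and 219 were 4.61, 4.96 and 4.80. Faslg lay below its limit in rats 217 and 218, and Lta (4.91 and 4.78) in rats 218 and 219. Without control 193 Lta passed with a difference of -0.39 (limma adjusted p = 0.0252), and with the filter on dim readings raised to the 50th percentile Faslg passed with -0.51 (limma adjusted p = 0.0255). That Faslg value is the difference of probe set 6049993 alone, the lowest of its 4 measured probe sets, whose differences ran up to 0.72.

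Of 11 ligands of the family with a value 5 rose and none fell. Tnfsf10 (TRAIL), the ligand of another death receptor, rose most, with 6.85, 5.60, 6.65 and 6.39 in EAE rats, against 5.32, 4.40, 4.06 and 4.57 in controls (1.79 ± 0.31, limma adjusted p = 0.00179). Controls 194, 195 and 196 lay below the background of gene values. With these counted at their limits, Tnfsf10 was at least 2.53-fold higher. Tnfsf13 (APRIL), a B cell survival factor, rose by 1.05 ± 0.21 and Ltb, lymphotoxin beta, by 0.62 ± 0.12 (limma adjusted p = 0.00434 and 0.00407). The Ltb difference was 0.29 with no filter, 1.07 under the filter at the 50th percentile and 1.01 with the median of its probe sets. Cd40lg, the T cell ligand of Cd40, passed with 0.71 ± 0.17 (limma adjusted p = 0.0110), with controls 193, 195 and 196 below background. Under the filter at the 50th percentile its difference was -0.07 (limma adjusted p = 0.832), and with the median of its probe sets its adjusted p was 0.149. The -0.07 is the difference of its lowest probe set, 5963183, alone, while its highest, 6665791, differed by 2.05.

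Of 8 other receptors of the family 2 rose and 6 did not pass. Tnfrsf14, the receptor of LIGHT, had 6.40, 6.54, 6.35 and 6.76 in EAE rats, against 4.33, 4.53, 4.97 and 4.68 in controls (1.88 ± 0.15, limma adjusted p = 1.04e-05). Controls 193, 194 and 195 lay below the background of gene values. With these counted at their limits, Tnfrsf14 was at least 3.22-fold higher. Tnfrsf1b, the second receptor for tumour necrosis factor, which has no death domain, had 5.56, 5.68, 5.08 and 5.58 in EAE rats, against 4.20, 4.67, 4.66 and 4.52 in controls. All its controls lay at or below the background of gene values, so it was at least 1.58-fold higher (0.96 ± 0.16, limma adjusted p = 0.00142). Ngfr, which also carries a death domain, differed by -0.15 ± 0.13 (limma adjusted p = 0.397).

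Several genes that act directly at the receptors rose. Casp8, the initiator caspase of both pathways, had 7.85, 7.89, 7.90 and 7.66 in EAE rats, against 5.25, 5.15, 5.02 and 5.11 in controls, a 6.47-fold rise (2.69 ± 0.10, limma adjusted p = 3.66e-08). Cflar, which holds Casp8 in check at the receptor, rose by 1.35 ± 0.11 (limma adjusted p = 9.13e-06). Ripk3, the kinase of necroptosis, rose by 1.40 ± 0.15 (limma adjusted p = 8.42e-05), and by 0.86 with the median of its probe sets. Birc3, a ubiquitin ligase of the Tnfrsf1a complex, was at background in controls and rose at least 2.39-fold (2.06 ± 0.19, limma adjusted p = 2.51e-05). Under the filter at the 50th percentile the Birc3 difference was 3.38. Adam17, which sheds tumour necrosis factor and its receptors, had 7.99, 8.03, 7.89 and 8.08 in EAE rats, against 7.45, 7.53, 7.32 and 7.44 in controls (0.57 ± 0.10, limma adjusted p = 0.00158). Fadd, the adaptor of Fas, was read by 1 probe set and differed by 0.45 ± 0.27 (limma adjusted p = 0.235). In all 7 of 16 genes in this list rose and 2 fell. Faim2, a neuronal inhibitor of Fas signalling, fell with the largest difference of these, -0.54 ± 0.18 (limma adjusted p = 0.0418), and did not pass when any of 6 single rats was left out. With the median of its probe sets the Faim2 difference was -0.87.

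Further down the pathways, of 16 genes of caspases and mitochondrial death 7 rose and 1 fell. Apaf1, the scaffold that activates caspase-9, rose by 1.15 ± 0.10, Bak1 by 0.91 ± 0.10 and the mitochondrial protease Htra2 by 0.68 ± 0.19 (limma adjusted p = 1.71e-05, 6.75e-05 and 0.0188). The call of Htra2 was lost without EAE 217 or EAE 241 (limma adjusted p = 0.0560 in both). Dffb, the nuclease that cuts DNA in apoptosis, fell by 0.79 ± 0.13 (limma adjusted p = 0.00112), although under the filter at the 50th percentile it did not pass (-0.60, limma adjusted p = 0.109), and with no filter the difference was -0.46. Of 11 NF-kappaB and stress kinase genes 5 rose and 1 fell. The inhibitor Nfkbie (0.68 ± 0.12), the kinase Ikbkb (0.66 ± 0.09) and the NF-kappaB subunit Rela (0.55 ± 0.12) rose most (limma adjusted p = 0.00166, 0.000490 and 0.00750), with Nfkbie at 1.14 under the filter at the 50th percentile. Mapk9, a JNK kinase, fell by 0.37 ± 0.12 (limma adjusted p = 0.0444), a call lost when any of 7 single rats was left out. Tradd, Ripk1 and Traf2 were not analysed here.

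The cords also differed in markers of cell types that carry these receptors. Of 7 measured T cell markers 6 rose, and their mean level ran from 6.02 to 6.23 in EAE rats, against 4.11 to 4.48 in controls, with 6 of 7 at background in controls. All 4 monocyte and macrophage markers rose (8.53 to 9.10 in EAE rats, against 5.01 to 5.37 in controls), and so did all 4 microglial markers (8.40 to 8.52, against 6.63 to 7.03 in controls). Of 4 neuronal markers 3 fell (10.98 to 11.22 in EAE rats, against 11.45 to 11.69 in controls). Astrocyte markers rose in 3 of 6 cases (9.79 to 10.19 in EAE rats, against 9.34 to 10.11 in controls), and of 5 oligodendrocyte markers 2 fell (8.82 to 9.18 in EAE rats, against 8.94 to 9.60 in controls). None of 3 neutrophil markers passed (4.57 to 4.74 in EAE rats, against 4.15 to 4.93 in controls). Of 5 markers of natural killer cells 2 rose and 1 fell, and the B cell marker Cd79b and 1 of 2 endothelial markers rose. The part of these cells in the receptor values was not tested, and in whole cords more cells of a type and more RNA per cell cannot be told apart.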

How the data were processed

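The authors deposited log2 probe set intensities, 1 array per rat, for 4 EAE and 4 control cords. The submitters' processing notes list Affymetrix Expression Console, RMA and Partek, with no version and no word on what each did. A genome build was not given in the sources used here. Of 80939 probe sets 76186 had 1 gene symbol in the platform annotation. The 62176 measured ones were tested with limma 3.58.1 (lmFit, eBayes) in R 4.3.3 by gene and by probe set, and exon usage with diffSplice where a gene had 3 or more of them, EAE minus control, with Benjamini-Hochberg adjustment over the whole table and a threshold of 0.05. No litter or batch is given per rat. Errors of the receptors' differences come from the group SDs, those of other genes from limma. The steps were checked on simulated data, with whole genes or single probe sets shifted by a fixed amount whatever their brightness. That check does not cover dim probe sets that respond less than bright ones of the same gene. Figures were drawn with matplotlib 3.10.9.

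The 2 genes, the lists and the tests were chosen with earlier results of these data known. Named genes are the main partners of both receptors and, from each list, up to 3 with the largest change past the threshold and the largest one in the other direction. For exon usage they are up to 6 listed genes with the smallest adjusted p, and for likeness the 3 nearest genes. List symbols not in the annotation were matched through RefSeq synonyms. Alternatives changed the dim filter, normalization, weights, variance model, summaries and leaving out arrays. The counts of receptor probe sets without control 195, or without it and EAE 218, and the differences of each probe set without control 195 were added after seeing the data.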

Additional observations from a re-analysis of the deposited data

Results flagged for a closer look

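In 6 of 108 groups of 4 rats 1 value lay far from the other 3 by Dixon's criterion, which flags about 5% of groups by chance. Control 195 was the far value in 3 of them: it read 2.72 in Tnfrsf1a probe set 6076052 (4.50 to 4.79 in the other controls), 3.07 in Fas probe set 6250592 (3.97 to 4.07) and 3.75 in Fas probe set 6742193 (2.85 to 2.95). All 3 readings lay below the background limit of its array. The other 3 were values relative to the rest of Tnfrsf1a. They were -1.61 in probe set 6167859 of control 194 (-1.04 to -1.01 in the other controls), -1.88 in 6343355 of EAE 218 (-0.98 to -0.87 in the other EAE rats) and -1.15 in 5968815 of control 193 (-0.60 to -0.56 in the other controls).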

How the results depend on the processing

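The gene values of both receptors and the relative values of Tnfrsf1a probe set 6076052 and Fas probe set 6574573 kept their direction under every alternative run on them. Without control 195, an alternative chosen after seeing the data for the other probe sets, 1 of 29 differences changed sign, to 0.084 in Tnfrsf1a probe set 6686313, and so did 1 of 23 relative differences, to -0.11 in Fas probe set 5830281. Under the filter at the 50th percentile the gene value differed by 1.19 in Tnfrsf1a and 1.73 in Fas. For Fas it was 1.32 without a filter and 1.11 with the median of probe sets. Fas probe set 6574573 differed by -0.73 relative to the median of the rest, and the filter at the 50th percentile removed it. Leaving out 1 rat at a time gave 0.83 to 0.97 for the Tnfrsf1a gene and 1.52 to 1.65 for Fas, and 2.43 to 3.16 for relative probe set 6076052 and -1.64 to -1.07 for 6574573. In the same way 1674 to 2340 genes (2164 with all rats), 8524 to 13451 probe sets (12661) and 22 to 32 listed genes (30) were called. Exon usage calls depended most on the setting. There were 1482 genes with all rats, 861 to 2101 with 1 rat left out, of which 861 without control 196, 915 without EAE 217 and 957 without EAE 241 were the lowest, 2421 with array quality weights and 729 with relative values tested one probe set at a time and combined by Simes' rule. The cause was not tested. No analysis paired by litter was possible because no litter is given per rat.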

Other observations

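Genes around the receptors also differed between their own probe sets. Of 52 listed genes tested for exon usage 24 passed limma's diffSplice F test at an adjusted p under 0.05. With relative values tested one probe set at a time and combined by Simes' rule 13 passed, all among those 24. Both tests use the same values, so the second is not independent of the first. Of all 5563 genes with at least 3 measured probe sets 26.6% passed diffSplice and 729 passed by Simes' rule. Among the listed genes, the 6 with the smallest diffSplice adjusted p were Tnfrsf14, Ripk3, Birc3, Casp8, Apaf1 and Madd. In Casp8 the difference ran from 0.60 in probe set 6550784 to 4.17 in 5939525, with all EAE rats above all controls in 6 of 7 probe sets (diffSplice adjusted p = 2.23e-12). In Apaf1 it ran from -0.39 to 1.98, with 25 of 29 probe sets wholly above (7.74e-12), and in Tnfrsf14 from 0.38 to 5.12, with 6 of 10 (3.84e-22). In Ripk3 it ran from -0.40 to 3.07 and in Birc3 from -0.29 to 4.69.

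Madd, which binds the death domain of Tnfrsf1a, had a gene difference of -0.06 ± 0.13 that did not pass (limma adjusted p = 0.754). Its 39 probe sets ran from -1.01 in 6251038 to 1.03 in 6298747, with 2 wholly above and 6 wholly below. Among all probe sets 9.37% were wholly above and 11.9% wholly below, so nothing is read from these Madd counts. Madd passed the exon usage test (diffSplice adjusted p = 7.08e-08) but not the one by Simes' rule (adjusted p = 0.0764).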
